A study of Mus musculus with 8 samples.

Results

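10 genes read as marks of blood-derived cells were followed through 4 primary cultures of mouse hind limb muscle: the pan-leukocyte genes Ptprc, Cd53 and Laptm5, the signalling adaptor genes Tyrobp and Fcer1g, the myeloid surface receptor genes Itgam, Csf1r and Adgre1, and the genes Cd68 and Lyz2 of lysosomal and secreted proteins. They were taken as every probe set on the arrays whose single gene symbol, current or older, is one of the 10. This gave 18 of 45037 probe sets, 14 on the array type MOE430A and 4 on MOE430B, for 10 of the 18193 genes named on the arrays. A probe set is a group of short oligonucleotides on an Affymetrix array that together report 1 signal for a transcript.

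The cultures held putative muscle-derived stem cells. In the PP6 group (replicates 2 and 3) the cells were purified by preplating, which separates muscle cells by how quickly they stick to a dish, and no purity was estimated. In the MACS group (replicates 2 and 3) they were sorted with magnetic beads to be positive for Sca1, an antigen of many tissue-resident progenitors, and negative for CD45, and flow cytometry put CD45-positive cells under 1% and Sca1-positive cells over 80%. All cultures grew in F10 Ham medium with serum, and the labels name muscle cells as the contaminating type in both preparations. Mouse strain, age and sex are not given in the labels, which also do not say whether the cultures of a group came from separate animals, so the p-values measure only the spread between these cultures. The RNA came from 6500000 and 6700000 cells in PP6 replicates 2 and 3, against 1980000 and 2040000 in MACS replicates 2 and 3. The RNA concentration was 35 and 15 ng/ul in PP6 replicates 2 and 3, against 55 and 65 ng/ul in MACS replicates 2 and 3.

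CD45, the product of Ptprc, is a receptor tyrosine phosphatase on the surface of nearly all nucleated blood cells, and CD53 is a tetraspanin with a similar range. Macrophages settle in skeletal muscle, clear debris after injury and depend on the growth factor CSF1 acting through its receptor, the product of Csf1r. Many of their activating receptors have no signalling tail of their own and pass their signal through the small membrane adaptors DAP12, from Tyrobp, and the Fc receptor gamma chain, from Fcer1g, whose phosphorylated motifs (ITAMs) recruit the kinase SYK. Because cells carrying CD45 were removed from MACS by its own protein, Ptprc checks the labels and its difference is not a finding about the cells. Whole cells were removed, so the sort also bears on every other gene of CD45-positive cells, in the members and in the lists below. Their differences are not independent of the sort, and its part in them was not tested.

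Most probe sets of the 10 genes were brighter in PP6. Of the 18 probe sets, 12 had both PP6 cultures above both MACS cultures, 1 had both below, and 5 overlapped. Over all 45037 probe sets, 23% had both PP6 cultures higher with no overlap and 17.6% had both lower. The median difference, PP6 minus MACS, was 1.30 log2 units over the 18 probe sets, against 0.07 over all probe sets, and the single values ran from -1.08 to 3.03. No member passed the test. In limma, fitted to the 23963 probe sets that exceeded their array's median signal in 2 or more of the 4 cultures, the adjusted p of the 14 tested members lay between 0.327 and 0.848, and 0% of all tested probe sets were called higher at the adjusted threshold of 0.05. At an unadjusted p under 0.05, 10 of the 14 were higher in PP6 and 0 were lower, where 5.69% of all tested probe sets were higher. Both PP6 cultures lay above both MACS cultures in 11 of the 14 and in 22.5% of all tested probe sets. Ptprc, Cd53, Fcer1g and 1 probe set of Laptm5 were dimmer than the array median in MACS replicates 2 and 3 and passed the filter only through PP6, which fixed their direction, so the counts over the tested members support nothing. The cultures are mixtures of cells, and fewer cells of a type cannot be told apart here from less RNA per cell.

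**Figure D1:**
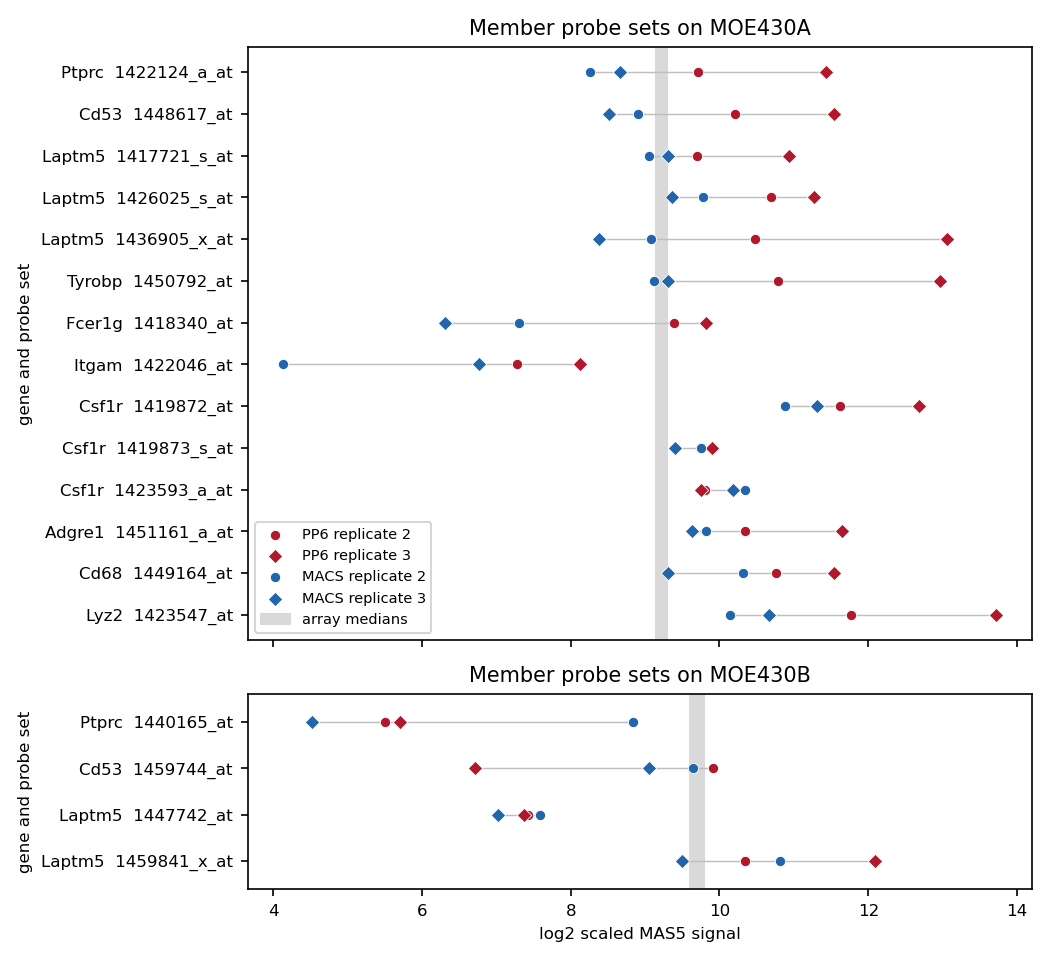
Log2 scaled signal of all 18 probe sets of the 10 genes, one row per probe set, with a point for each of the 2 PP6 and 2 MACS cultures and a grey band over the array medians, for MOE430A above and MOE430B below. In 12 rows both PP6 points lie right of both MACS points, and for Ptprc, Cd53 and Fcer1g on MOE430A the MACS points lie left of the band.

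The start sites of the genes are shown because many myeloid genes are read from promoters without a TATA box that bind PU.1, the blood-cell transcription factor encoded by Spi1. RefSeq promoter windows of 300 bases around each gene's start, most of them upstream of it (build GRCm38.p6), were at hand for 7 of the 10 genes, in 8 windows, since Ptprc has 2. The core GAGGAA, searched on both strands, was found in windows of 5 of the 7 genes, Ptprc, Cd53, Laptm5, Itgam and Cd68, and in 28.3% of all 32851 windows. The longer GAGGAAGT, which contains the core and so overlaps it, was found in Cd53 alone of the 7 and in 3.2% of all windows. TATAAA, also searched on both strands, was found in Ptprc and Laptm5 and in 13.6% of all windows. CCAAT was found in Cd53, Laptm5 and Cd68 and in 37.4% of all windows. Cd68 alone of the 7 held TTGCNNAA, the letters of C/EBP factors, and TGANTCA, those of AP-1, found in 10.8% and 7.81% of all windows. These are matches of letters, and binding was not measured. The windows of Cd53 (chr3:106790100-106790399, minus strand), Itgam (chr7:128062390-128062689, plus strand) and Lyz2 (chr10:117282223-117282522, minus strand) are given 5′ to 3′ along the gene, with matches of the core in capitals, TTCCTC being the core on the other strand. Cd53 holds it at bases 212 and 259 of the window, Itgam at bases 167, 236 and 283, and the Lyz2 window has no match to GAGGAA. PU.1 sites of other letters were not searched, so the Lyz2 window may still hold one.
Cd53: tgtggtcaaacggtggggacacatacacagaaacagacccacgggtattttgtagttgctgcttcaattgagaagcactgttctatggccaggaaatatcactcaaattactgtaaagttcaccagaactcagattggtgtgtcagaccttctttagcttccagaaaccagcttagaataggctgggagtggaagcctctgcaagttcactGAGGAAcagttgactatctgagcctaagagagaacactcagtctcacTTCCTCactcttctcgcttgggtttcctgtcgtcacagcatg
Itgam: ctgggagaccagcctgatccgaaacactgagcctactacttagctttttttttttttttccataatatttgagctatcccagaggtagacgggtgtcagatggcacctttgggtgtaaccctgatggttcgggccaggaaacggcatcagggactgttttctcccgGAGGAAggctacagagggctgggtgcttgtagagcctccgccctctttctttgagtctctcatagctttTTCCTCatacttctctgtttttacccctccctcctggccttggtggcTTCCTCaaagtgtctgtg
Lyz2: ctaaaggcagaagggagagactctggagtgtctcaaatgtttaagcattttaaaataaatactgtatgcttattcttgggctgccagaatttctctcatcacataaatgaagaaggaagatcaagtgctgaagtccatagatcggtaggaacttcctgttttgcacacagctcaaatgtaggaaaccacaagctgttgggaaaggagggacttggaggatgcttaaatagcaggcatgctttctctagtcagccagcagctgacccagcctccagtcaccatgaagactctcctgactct

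Among the pan-leukocyte genes, Ptprc on MOE430A (1422124_a_at) had a log2 signal of 9.71 in PP6 replicate 2 and 11.43 in PP6 replicate 3, against 8.25 and 8.67 in MACS replicates 2 and 3. Both PP6 cultures were above both MACS cultures, and PP6 replicate 3 was the highest. The means were 10.57 ± 1.22 in PP6 and 8.46 ± 0.29 in MACS (SD, n = 2), a 4.32-fold difference of 2.11 ± 0.67 log2 units (SE), with an unadjusted p of 0.022 and an adjusted p of 0.376 in limma. Both MACS signals, 305 and 407 on the linear scale against 837 and 2769 in PP6, were below the median of their arrays, and with signals under the array median raised to it the difference was 1.41. It was 1.25 without PP6 replicate 3 (unadjusted p of 0.199). The MOE430B probe set of Ptprc (1440165_at) was below the median of its array in every culture and was not tested. Its log2 signal was 5.50 and 5.71 in PP6, against 8.84 and 4.53 in MACS replicates 2 and 3, so the MACS cultures lay on either side of PP6. Its difference of -1.08 turned to 1.08 without MACS replicate 2.

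Cd53 gave the smallest p of the 10 genes, but it entered the test only through PP6, which fixed its direction. With signals under the array median raised to it, the difference of its MOE430A probe set was 1.71. Its MOE430A probe set (1448617_at) read 10.20 and 11.54 in PP6 replicates 2 and 3, against 8.90 and 8.52 in MACS replicates 2 and 3. The groups did not overlap, at 10.87 ± 0.95 in PP6 and 8.71 ± 0.27 in MACS (SD, n = 2), and the difference was 2.16 ± 0.55 log2 units (SE), 4.48-fold, with an unadjusted p of 0.0088 and an adjusted p of 0.327 in limma. Its MOE430B probe set (1459744_at), which was not tested, read 9.92 and 6.72 in PP6 and 9.64 and 9.05 in MACS. There PP6 replicate 2 was the highest culture and PP6 replicate 3 the lowest, and the difference of -1.03 became 0.57 without PP6 replicate 3.

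Laptm5 encodes a transmembrane protein of lysosomes in blood cells and had 5 probe sets, of which 3, all on MOE430A, had both PP6 cultures above both MACS cultures. The largest difference in means of any member was that of 1436905_x_at, with 10.48 and 13.05 in PP6 replicates 2 and 3, against 9.08 and 8.39 in MACS. This 3.03 ± 0.85 log2 units (SE) is 8.18-fold, at an unadjusted p of 0.013 and an adjusted p of 0.334 in limma. PP6 replicate 3 stood far above the other cultures, and without it the difference was 1.74. Both MACS signals of 1436905_x_at were below the array median, so it entered the test only through PP6, which fixed its direction. With signals under the array median raised to it, the difference was 2.60. The second, 1426025_s_at, read 10.70 and 11.28 in PP6 and 9.78 and 9.36 in MACS, 1.42 ± 0.37 apart (SE), with an unadjusted p of 0.00926 and an adjusted p of 0.328. The third, 1417721_s_at, read 9.70 and 10.93 in PP6 and 9.06 and 9.31 in MACS, a difference of 1.13 with an unadjusted p of 0.0781. Leaving out PP6 replicate 3 gave 0.52 for it, and leaving out PP6 replicate 2 gave 1.75. On MOE430B, 1459841_x_at read 10.34 and 12.10 in PP6 and 10.81 and 9.50 in MACS, so that PP6 replicate 2 lay between the MACS cultures. Its difference of 1.06 (unadjusted p of 0.184) became 0.19 or 1.94 when PP6 replicate 3 or PP6 replicate 2 was left out, and 0.40 or 1.72 when MACS replicate 3 or MACS replicate 2 was left out. The dim 1447742_at, not tested, read 7.43 and 7.37 in PP6 and 7.58 and 7.02 in MACS, and its groups overlapped.

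Both adaptor genes were higher in both PP6 cultures. Tyrobp (1450792_at) had a log2 signal of 10.78 and 12.96 in PP6 replicates 2 and 3, against 9.12 and 9.31 in MACS replicates 2 and 3. The MACS cultures lay close together at the array median, 9.21 ± 0.13, and PP6 averaged 11.87 ± 1.54 (SD, n = 2). The 6.32-fold difference of 2.66 ± 0.71 log2 units (SE) had an unadjusted p of 0.0104 and an adjusted p of 0.332 in limma, and was 1.57 without PP6 replicate 3. Fcer1g (1418340_at) read 9.38 and 9.82 in PP6, against 7.31 and 6.31 in MACS, where it stood at percentiles 23.8 and 15.4 of the array. The PP6 cultures lay close together and the groups did not overlap, at 9.60 ± 0.31 in PP6 and 6.81 ± 0.70 in MACS (SD, n = 2). The difference was 2.79 ± 1.05 log2 units (SE), 6.92-fold, with an unadjusted p of 0.0397 and an adjusted p of 0.418. With dim signals raised to the array median it was 0.43, since the MACS signals are below the median and the PP6 signals a little above it.

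The surface receptor genes gave mixed readings. Itgam encodes the alpha chain of the integrin CD11b/CD18, by which myeloid cells adhere and take up complement-coated particles. Its one probe set (1422046_at) read 7.27 and 8.12 in PP6, against 4.14 and 6.77 in MACS replicates 2 and 3, below the array median in every culture, and was not tested. The groups did not overlap, at 7.70 ± 0.60 in PP6 and 5.45 ± 1.86 in MACS (SD, n = 2). The difference in means of 2.24 log2 units rested on MACS replicate 2: it was 0.93 without that culture and 3.56 without MACS replicate 3. Adgre1, which encodes the macrophage antigen F4/80, read 10.34 and 11.65 in PP6 and 9.82 and 9.63 in MACS (1451161_a_at). Both PP6 cultures were higher, at 10.99 ± 0.93 in PP6 and 9.73 ± 0.13 in MACS (SD, n = 2). The 2.40-fold difference of 1.26 ± 0.49 log2 units (SE) had an unadjusted p of 0.0439 and an adjusted p of 0.424, and leaving out PP6 replicate 3 or PP6 replicate 2 gave 0.61 or 1.92.

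The 3 probe sets of Csf1r, the CSF1 receptor gene, did not point one way. The first, 1419872_at, read 11.62 and 12.68 in PP6 and 10.88 and 11.31 in MACS, a difference of 1.05 ± 0.40 log2 units (SE) with an unadjusted p of 0.0436 and an adjusted p of 0.424. Leaving out PP6 replicate 3 gave 0.52, and leaving out PP6 replicate 2 gave 1.58. The second, 1419873_s_at, read 9.75 and 9.90 in PP6 and 9.75 and 9.40 in MACS, and its groups overlapped, with a difference of 0.25 and an unadjusted p of 0.557. The third, 1423593_a_at, was lower in PP6, at 9.80 and 9.76, against 10.34 and 10.19 in MACS. It was the single member probe set with both PP6 cultures below both MACS cultures. The difference in means was -0.49 ± 0.33 log2 units (SE), with an unadjusted p of 0.198 and an adjusted p of 0.621 in limma. Csf1r was therefore the gene of the 10 whose direction depends on the probe set above the array median that is read.

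Cd68 and Lyz2 were higher in both PP6 cultures. Cd68, a glycoprotein of late endosomes and lysosomes abundant in macrophages (1449164_at), read 10.76 and 11.54 in PP6, against 10.31 and 9.31 in MACS replicates 2 and 3. The groups did not overlap, at 11.15 ± 0.55 in PP6 and 9.81 ± 0.71 in MACS (SD, n = 2), 1.34 ± 0.47 log2 units apart (SE), with an unadjusted p of 0.0307 and an adjusted p of 0.400 in limma. Without MACS replicate 3 the difference was 0.84. Lyz2, the secreted M lysozyme of macrophages and neutrophils (1423547_at), read 11.77 and 13.72 in PP6 replicates 2 and 3, against 10.14 and 10.66 in MACS replicates 2 and 3. It stood at percentiles 87.5 and 97.0 of the array in PP6 and 67.0 and 74.5 in MACS, so its signal was above the array median in all 4 cultures. The means were 12.75 ± 1.38 in PP6 and 10.40 ± 0.37 in MACS (SD, n = 2), a 5.08-fold difference of 2.35 ± 0.64 log2 units (SE), with an unadjusted p of 0.0116 and an adjusted p of 0.334. It was 1.37 without PP6 replicate 3.

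Over most of these probe sets PP6 replicate 3 was the brighter of the PP6 cultures. PP6 replicate 3 read above PP6 replicate 2 in 15 of the 18 probe sets, where 22497 of all 45037 probe sets did, and the median gap between them was 0.95 log2 units. The median gap of MACS replicate 3 over MACS replicate 2 was -0.36. These are medians of signed gaps and do not measure spread, which was wider in MACS for some of the probe sets. The order PP6 replicate 3, then PP6 replicate 2, then both MACS cultures held for 12 of the 18 probe sets and for 5420 of the 45037. Set against the MACS mean, the median probe set was 0.78 higher in PP6 replicate 2 and 1.83 higher in PP6 replicate 3. By role, these medians in PP6 replicates 2 and 3 were 0.57 and 1.75 for the 9 probe sets of pan-leukocyte genes, and 2.07 and 3.38 for the 2 of the adaptors. They were 0.52 and 1.58 for the 5 of the surface receptors, and 1.16 and 2.53 for Cd68 and Lyz2. Leaving out MACS replicate 2 or MACS replicate 3 gave a median difference over the 18 probe sets of 1.49 or 1.24. PP6 replicate 3 also had the lowest RNA concentration, 15 ng/ul. The 3′ to 5′ log2 ratio of Gapdh on MOE430A, a measure of RNA quality, was 2.73 and 3.37 in PP6, against 3.60 and 2.42 in MACS, so the groups overlapped. In every culture the 3′ signal was thus several-fold above the 5′ signal. The part of RNA amount and quality in these differences was not tested.

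**Figure D2:**
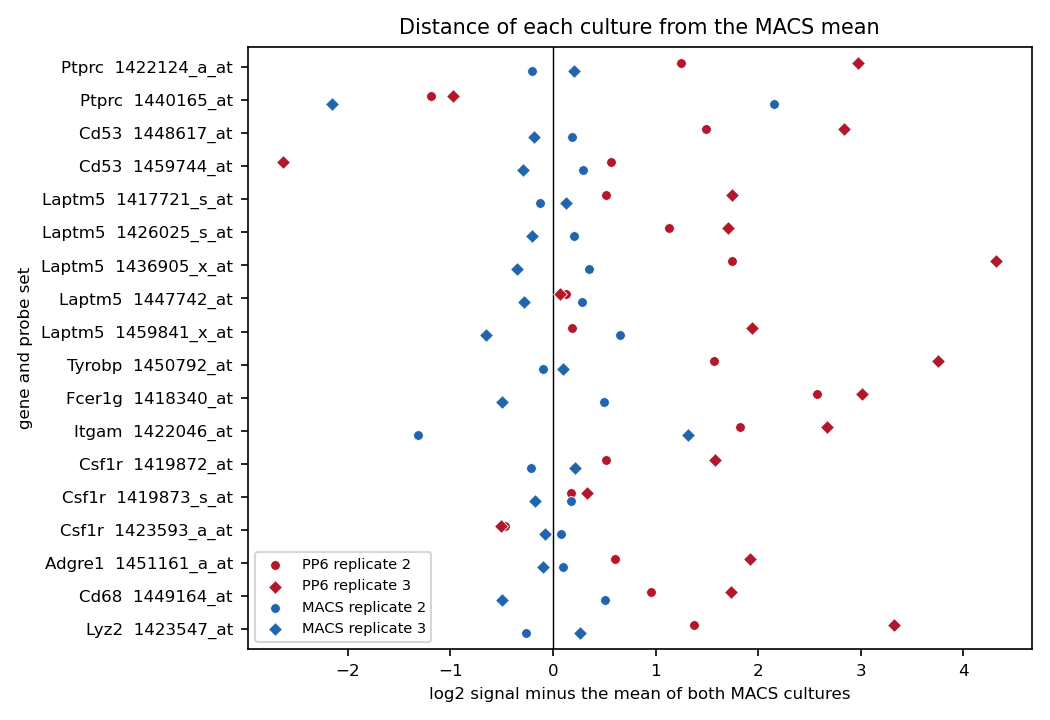
Log2 signal of each culture minus the mean of both MACS cultures, one row per probe set of the 10 genes, with circles for replicate 2 and diamonds for replicate 3. PP6 replicate 3 lies right of PP6 replicate 2 in 15 of the 18 rows, and the MOE430B rows of Ptprc and Cd53 are the ones in which the PP6 mean lies furthest left of 0.

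Genes that work with the members were counted with 1 probe set each, where 5.81% of 12278 genes were higher and 5.44% lower in PP6 at an unadjusted p under 0.05, and no gene passed the adjusted threshold. These partner lists leave out the 10 genes themselves. As with the members, a gene dimmer than the array median in both MACS cultures could enter the test only through PP6, so its direction was fixed by the filter. This holds for 316 of the 12278 genes, and such genes are named with each list that holds called genes. The counts of tested genes are therefore a description and support nothing. Of 13 tested other pan-leukocyte genes, 7 were higher and 0 lower, among them Coro1a and Cd52, which entered only through PP6. Of all 33 probe sets of the list, 22 had both PP6 cultures above both MACS cultures (66.7%), with a median difference of 0.97. Itgb2, the CD18 chain with which the Itgam product pairs, read 10.77 and 12.43 in PP6 and 9.004 and 9.216 in MACS. Its difference was 2.49 ± 0.58 log2 units (SE), with an unadjusted p of 0.00572 and an adjusted p of 0.314 in limma. PP6 replicate 3 was the highest culture here too. Cytip, which encodes a cytohesin-binding protein of leukocytes, read 10.68 and 11.63 in PP6 and 9.27 and 9.35 in MACS, 1.84 ± 0.42 apart (unadjusted p of 0.00516). Ptpn6, the gene of the phosphatase SHP-1, read 11.07 and 11.52 in PP6 and 9.76 and 10.40 in MACS, 1.22 ± 0.35 apart (unadjusted p of 0.0148).

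Other integrin genes and ligands followed Itgb2 in part. With Itgb2 counted here as well, 2 of 6 tested genes were higher and 1 was lower (Itgax, neither of these, entered only through PP6), and 7 of 10 probe sets had both PP6 cultures higher. Itgal, the alpha chain of the integrin LFA-1, read 11.16 and 11.46 in PP6 and 8.83 and 10.48 in MACS, a difference of 1.65 with an unadjusted p of 0.0293. Icam1, a ligand of these integrins on the cells that leukocytes bind, lay the other way, at 10.94 and 11.74 in PP6 and 12.83 and 12.62 in MACS, with a difference of -1.38 ± 0.32 (SE), an unadjusted p of 0.0059 and an adjusted p of 0.314.

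The genes listed around ITAM signalling included receptors that use the adaptors, kinases, the phospholipase gene Plcg2 and the inhibitory receptor genes Fcgr2b and Sirpa. Of 12 tested, 1 was higher and 0 lower (Trem2, Fcgr1 and Fcgr3 entered only through PP6), with a median difference of 0.65 over 31 probe sets, of which 51.6% had both PP6 cultures higher. Sirpb1a, an activating receptor that uses DAP12, read 10.91 and 12.08 in PP6 and 10.45 and 10.22 in MACS, 1.16 ± 0.43 apart (unadjusted p of 0.0387, adjusted p of 0.417 in limma). Fcgr3, an IgG receptor that needs the Fcer1g product, read 9.44 and 11.69 in PP6, against 6.35 and 9.04 in MACS. The difference in means of 2.87 ± 1.17 had an unadjusted p of 0.0517, and the groups did not overlap. Trem1 read 10.52 and 11.62 in PP6 and 8.68 and 10.43 in MACS, 1.52 apart with an unadjusted p of 0.0706.

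On the CSF1 axis, of 8 tested genes 1 was higher and 1 lower (Spi1, the higher one, and Csf3r entered only through PP6), the median difference over 27 probe sets was 0.19, and 29.6% of them had both PP6 cultures higher. The ligand gene Csf1 was bright in both groups and lower in PP6, at 13.84 and 13.39, against 14.78 and 14.43 in MACS, a difference of -0.99 ± 0.25 (SE, unadjusted p of 0.00879, adjusted p of 0.327 in limma). Its other 3 probe sets gave -1.35, -0.10 and -0.02. Spi1, the PU.1 gene, read 9.82 and 10.74 in PP6 and 9.0 and 9.05 in MACS, 1.26 ± 0.48 apart with an unadjusted p of 0.041. Csf3r, the G-CSF receptor gene of neutrophils, read 9.60 and 9.77 in PP6 and 8.21 and 8.45 in MACS, 1.36 apart with an unadjusted p of 0.0587.

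Of 10 tested genes of the phagocyte oxidase and the lysosome, 8 were higher and 0 lower (Ncf4, among the 8, entered only through PP6), with a median difference of 1.11 over 22 probe sets, of which 72.7% had both PP6 cultures higher. Ncf1, a cytosolic subunit of the oxidase, read 12.72 and 14.07 in PP6 and 10.79 and 11.04 in MACS, a difference of 2.48 ± 0.46 (SE, unadjusted p of 0.00193, adjusted p of 0.295 in limma). The lysosomal genes Hexa and Psap, which most cells express, differed by 1.16 ± 0.24 and 1.29 ± 0.26.

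The label of the group was set against 34 probe sets of 21 other macrophage and monocyte genes. Of 11 tested genes, 5 were higher and 0 lower, the median difference over all 34 probe sets was 0.80, and 47.1% had both PP6 cultures higher. Pf4, a chemokine gene of platelets and some macrophages, read 14.27 and 15.34 in PP6 and 12.28 and 13.04 in MACS, 2.14 ± 0.43 apart (SE, unadjusted p of 0.00297, adjusted p of 0.306 in limma). The lectin receptor genes Clec4n and Clec7a differed by 2.81 ± 0.58 and 1.51 ± 0.37. The remaining genes of this list described here were chosen after their values were seen. Ctss, the gene of cathepsin S, and Mpeg1, that of perforin-2, differed by 2.10 ± 0.63 and 1.57 ± 0.48, and Cd14, the lipopolysaccharide co-receptor gene, by 0.63 ± 0.26, each with both PP6 cultures higher. Of the 11 tested genes, 9 had a positive difference. Among these, Msr1, Ms4a7 and Ccr2 were at 0.75, 0.33 and 0.20 with overlapping groups. Folr2, at -0.52 ± 0.46, had both PP6 cultures lower. Marco was at -0.31 ± 1.11 with overlapping groups, and its dim MOE430A probe set, not tested, gave 0.86. Several genes widely used to define macrophages were dim and were not tested. C1qa, a chain of complement C1q, read 6.83 and 6.38 in PP6 and 5.87 and 5.69 in MACS. The 3 probe sets of C1qb, another chain of it, also had both PP6 cultures higher, with differences in means of 1.73, 1.84 and 1.92. C1qc, a further chain of it, had a difference of -0.58 with overlapping groups. Mrc1, the mannose receptor gene, read 8.59 and 9.98 in PP6 and 8.52 and 8.64 in MACS, and Cd163 5.84 and 8.05 in PP6 and 7.84 and 6.51 in MACS, with overlapping groups for both; Mrc1 passed the array median in PP6 replicate 3 alone. Cx3cr1 and Aif1 lay below the array median in every culture, with differences of -0.13 and -1.23 for the probe sets of Cx3cr1 and 0.39 for Aif1.

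Markers of neutrophils were also brighter in PP6. Of 13 tested neutrophil genes, 11 were higher and 0 lower. S100a9, Camp, Elane, Ctsg, Prtn3 and Csf3r were dimmer than the array median in MACS and entered only through PP6, 5 of them among the 11. The list had a median difference of 3.92 over 15 probe sets, and 80% of these had both PP6 cultures higher. The summed signal of the neutrophil probe sets was 119989 and 411429 in PP6 replicates 2 and 3, against 6964 and 14007 in MACS replicates 2 and 3. The summed signal of the other macrophage probe sets was 48182 and 110056 in PP6 and 21100 and 24831 in MACS. A sum rests mostly on the brightest probe sets of its list, so each is set only against the same sum in the other cultures and not against another list's. Ngp, S100a8 and S100a9, genes of abundant neutrophil proteins, differed by 5.94 ± 0.57, 5.91 ± 0.62 and 6.85 ± 0.74 log2 units (SE), each with an adjusted p of 0.255 in limma. Neutrophils express Ptprc, Cd53, Laptm5, Tyrobp, Fcer1g, Itgam and Lyz2 as well, so these members do not separate them from macrophages, and the part of each cell type in the members' differences was not tested.

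Markers of lymphoid and other blood cells had smaller median differences than the neutrophil genes, but the dendritic median was near the 0.80 of the other macrophage genes. Both PP6 cultures were higher in 37.5% of T and NK cell, 5.88% of B cell and 50% of mast cell and basophil probe sets. For dendritic cell genes it was 50% and for erythroid and platelet genes 25%, against 23% of all probe sets. For T and NK cell genes the median difference was 0.29 over 24 probe sets, with 0 of 4 tested genes past an unadjusted p of 0.05 and Zap70, Cd5 and Cd8a at 0.38, -0.85 and 0.30. For B cell genes it was -0.18 over 17 probe sets, with 0 of 5 tested genes and Blk, Cd22 and Ebf1 at 1.37, 0.80 and -0.32. For mast cell and basophil genes it was 0.54 over 14 probe sets, with 0 of 4 and Kit, Cpa3 and Cma1 at 0.54, 0.58 and -0.55. For dendritic cell genes it was 0.71 over 10 probe sets, with 0 of 5 and Siglech, Flt3 and Itgax at 0.79, 1.64 and 0.89. For erythroid and platelet genes it was 0.08 over 8 probe sets, with 1 of 5 higher: the platelet chemokine gene Ppbp read 12.54 and 14.23 in PP6 and 10.92 and 10.82 in MACS, beside Itga2b at 0.38 and Gata1 at 0.17. Many genes of these lists were too dim to be tested.

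Among genes of the tissue itself, 7 of 10 tested muscle genes were higher and 1 lower, and 4 of the 7, Acta1, Tnnc1, Tnnt1 and Myh3, entered only through PP6. The list's median over all its probe sets was 0.67, with Acta1, Tnnc1 and Tnnt1 of the contractile apparatus at 4.42, 3.67 and 3.16. The 1 lower was Pax7, a satellite cell gene chosen here after its value was seen, at -1.56. The summed signal of the muscle probe sets was 36971 and 62612 in PP6, against 19480 and 22335 in MACS. Of 9 fibroblast genes 6 were higher and 0 lower, with a median of 0.89 and with Col1a1, Fn1 and Dcn at 2.17, 1.06 and 1.23, and a summed signal of 247394 and 235000 in PP6, against 92208 and 147065 in MACS. Of 8 tested endothelial genes 0 were higher and 3 lower, with a median of -0.54 and with Vwf, Sox17 and Erg at -1.04, -1.09 and -1.33. The fibroblast median against the MACS mean was 0.78 in PP6 replicate 2 and 0.78 in PP6 replicate 3, while that of the members differed between these cultures. The members were thus not the sole genes brighter in PP6.

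**Figure D3:**
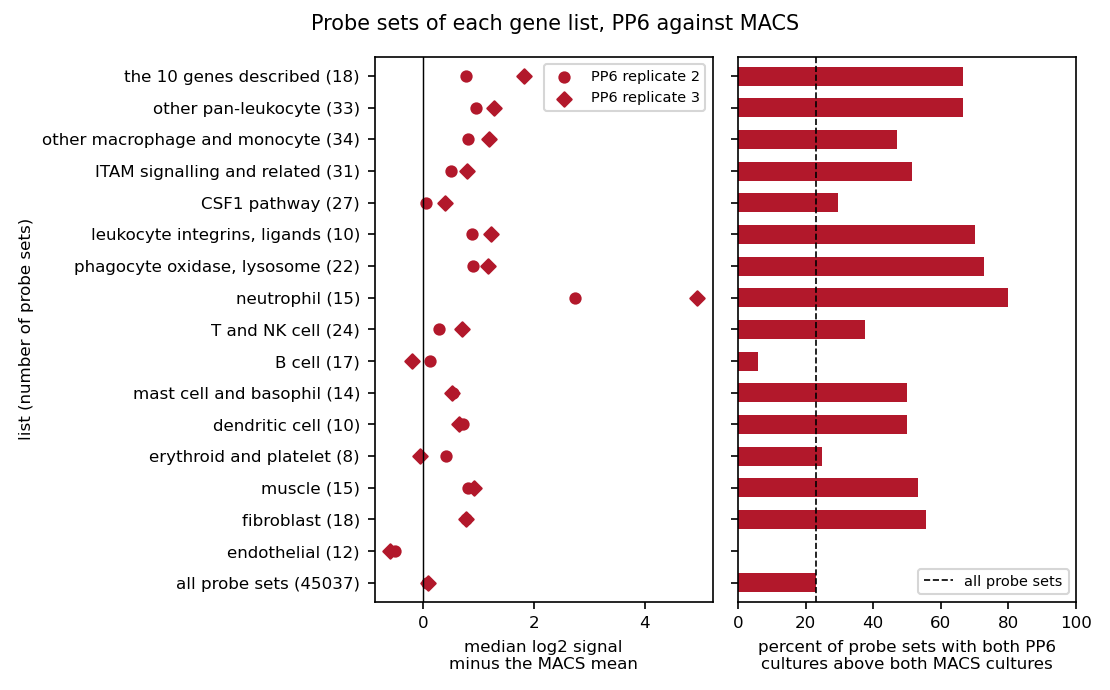
Left, the median over the probe sets of each gene list of log2 signal in PP6 replicate 2 and in PP6 replicate 3 minus the mean of both MACS cultures; right, the percent of the list's probe sets with both PP6 cultures above both MACS cultures, with the number of probe sets in parentheses and a dashed line at the 23% of all probe sets. The 10 genes stand at 0.78 and 1.83, neutrophil genes at 2.75 and 4.95, and endothelial genes at -0.50 and -0.59.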

How the data were processed

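Total RNA of 4 cultures was hybridised to MOE430A and MOE430B, which gives 8 arrays. The deposited values are signal intensity on a linear scale, made by the authors with MAS5, per the submitters' processing notes; its version and a genome build are not given in the sources used here. Before any change, the deposited 2% trimmed means were all about 1500.6 on MOE430A and 1500.2 on MOE430B, so the arrays had been scaled before deposit. No detection calls were used, so folds against dim signals carry no bound, and the number of arrays limits the precision. All 4 arrays of a type were of 1 lot and were hybridised on 1 day and scanned on 1 day.

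Signals were scaled to a common trimmed mean per array type and log2-transformed with no pseudocount. The types were stacked, without 64 control probe sets each and with 100 shared ones read from MOE430A. Names came from the platform annotation, updated through Entrez identifiers: 20393 probe sets on MOE430A and 14674 on MOE430B had 1 symbol, 691 and 245 several, and 1606 and 7656 none, and genes were named only from the first kind. The difference PP6 minus MACS was fitted with limma 3.58.1 (R 4.3.3; lmFit and eBayes with an intensity trend; 2 residual degrees of freedom, 5.67 after moderation; two-sided; Benjamini-Hochberg over 23963 probe sets, threshold 0.05), which was tested on simulated data. An exact permutation test of 2 against 2 cultures cannot go below p = 0.333, so none was used. A gene counted in a list was its tested probe set on MOE430A before MOE430B, then with the highest mean signal, and the 3 genes of each of 15 lists with the smallest p were named. The members and lists were chosen with earlier results of these data known. The alternatives are given at the end. Motifs were searched in RefSeq windows. No sequence of Tyrobp, Adgre1 or Csf1r is shown.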

Additional observations from a re-analysis of the deposited data

How the results depend on the processing

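The direction of the members held in 223 of 230 member-by-setting values. Many of these could not turn, so the count does not measure robustness. The changes of filter, the fits of 1 array type, the fit without the trend and the replicate block leave the difference itself unchanged. The deposited values nearly do so. Leaving out 1 culture cannot turn a probe set whose groups do not overlap. The 7 that turned belong to 3 dim probe sets: 1440165_at of Ptprc (0.12 with dim signals raised to the array median, -3.24 to 1.08 with a culture left out), 1459744_at of Cd53 (0.21 with the raised signals, -2.63 to 0.57 with a culture left out) and 1447742_at of Laptm5 (-0.067 with quantile normalization, -0.023 with median centring, -0.18 to 0.38 with a culture left out). Every signal of 1440165_at was below the array median, so its 0.12 is only the difference between array medians and says nothing about Ptprc. No member passed the adjusted threshold under any of the alternatives run, the smallest adjusted p being 0.0982 for Cd53 with MOE430A alone. Of the 14 tested member probe sets, 9 were higher at an unadjusted p under 0.05 in limma with quantile normalization. It was 8 with median centring (which moved the median of tested probe sets to -0.11) and 8 without the eBayes trend. Of all 23963 tested probe sets, 1240, 948 and 1303 were higher under these settings, in that order. Some members entered only through PP6, so these member counts support nothing. The median over members was 0.78 to 1.83 when each culture was left out in turn. Over all probe sets, the count higher at adjusted p under 0.05 was 18 with dim signals raised, 5 with a filter at the 75th percentile, 55 with MOE430A alone and 0 to 1 with a culture left out, and the count lower was 5 with dim signals raised and 16 with MOE430A alone. The count higher at unadjusted p was 2216 without a filter, 739 with the filter at the 75th percentile, 889 with MOE430A alone, 475 with MOE430B alone and 648 to 1790 with a culture left out. The cause was not tested. Whether same-numbered cultures are paired was not settled. The gap of replicate 3 over replicate 2 correlated at -0.03 between PP6 and MACS over tested probe sets. This shows no shift shared over probe sets but cannot exclude a pairing. With the replicate block 2 probe sets were higher at adjusted p, 1181 at unadjusted p, and the median over members stayed at 1.30. A culture left alone in its group is assumed to vary like the other group. Dim signal limits Itgam, Fcer1g and the MOE430B probe sets of Ptprc and Cd53 and 1447742_at of Laptm5.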
